A study of Mus musculus with 18 samples.

Results

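The Notch receptors, their ligands and their targets were followed in whole mouse lungs of embryonic stage 14.5 dpc (days post coitus), in which Rptor, Tfam or Cox10 had been deleted with ShhCre. The 10 genes were chosen by symbol: the receptors Notch1, Notch2 and Notch3, the ligands Jag1, Jag2, Dll1 and Dll4, and the target genes Hes1, Hey1 and Hey2. All 10 were found among the 23420 rows of each table, and all 10 passed the filter on low values in every line. Deficient lungs were Rptor f/f; ShhCre/+, Tfam f/f; ShhCre/+ or Cox10 f/f; ShhCre/+. Control lungs of the same line carried ShhCre/+ and 1 floxed allele (Rptor f/+, Tfam f/+ or Cox10 f/+), so that Cre was present in all 18 lungs. There were 3 lungs in each of the 6 groups. ShhCre is active in the lung epithelium, whereas RNA was taken from the whole organ, so that a change of the non-epithelial cells and a change of the epithelium enter the same value. Rptor encodes a component of the kinase complex mTORC1, Tfam a factor that maintains mitochondrial DNA, and Cox10 an enzyme needed to assemble complex IV of the respiratory chain.

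Notch receptors are cell surface proteins that are activated by ligands of the Jagged and Delta-like families on a neighbouring cell. Ligand binding leads to cleavage of the receptor by Adam10 and then by gamma-secretase, and the released intracellular part joins Rbpj in the nucleus to switch on genes of the Hes and Hey families. In the developing lung the pathway is known for the choice between secretory and ciliated fates in the airways. It is also known for arterial identity in the endothelium and for the recruitment of smooth muscle and pericytes, where Notch3 is prominent.

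Values are read counts per gene divided by a size factor of each library ("normalised reads"), with library totals of 27727200 to 29611060. Differences are log2 values of deficient minus control lungs with their standard error (SE), from limma fitted to all genes of a line on log2(value + 1), and a gene passed at an adjusted p below 0.05 (Benjamini-Hochberg over all genes tested). Nothing in the labels says which embryo a library came from beyond its number, so p-values measure the spread between these libraries. The targeted gene did not differ detectably in whole lungs of its own line. The log2 difference was -0.07 for Rptor, -0.12 for Tfam and -0.01 for Cox10, each with overlapping groups, so the level of the targeted gene does not check the labels here. Epithelial markers (Epcam, Cdh1, Nkx2-1 and 7 others) had a median log2 difference of -0.95 in the Rptor line, where 9 of 10 fell, of -0.26 in the Tfam line, where 4 fell, and of -0.41 in the Cox10 line, where 2 fell. Endothelial markers (Pecam1, Cdh5, Kdr and 8 others) rose in 9 of 11 cases in the Rptor line and in none in the other lines (3 for Tfam and 0 for Cox10 at an unadjusted p below 0.05), with medians of 0.33, 0.08 and 0.27. Their summed level was 41563 to 43178 normalised reads in Rptor control lungs and 50850 to 58318 in Rptor-deficient lungs. It was 42527 to 43500 and 44427 to 47394 in the Tfam line. Cox10-deficient lung 3 stood apart, with 46898 against 32662 and 29819 in the other Cox10-deficient lungs and 29065 to 30208 in the controls, and log2 differences of the 10 genes in the Cox10 line are therefore also given without it. Of 4 markers of airway secretory cells, 2 could be tested in the Rptor line, where both fell (median -5.15), and 2 in the Tfam line, where 1 fell. In the Cox10 line 1 could be tested, with a log2 difference of 0.33 that did not pass. The summed level of these markers was 29.3 to 53.0 normalised reads in Cox10 controls. It was 258 in Cox10-deficient lung 3 against 35.9 and 29.2 in the other Cox10-deficient lungs. Of 4 mesothelial markers, 3 rose in the Rptor line (median 0.82) and none passed in the other lines (1 at an unadjusted p below 0.05 in each). In whole lungs, fewer cells of a type and less RNA per cell cannot be told apart.

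The genes of the pathway were present at very different levels. Per kilobase of annotated exon, the control means over the lines ranged from 725 to 936 normalised reads for Notch3, from 579 to 688 for Notch2 and from 528 to 894 for Hes1. They ranged from 230 to 365 for Notch1, 132 to 183 for Hey1, 111 to 185 for Jag1, 108 to 155 for Dll4 and 102 to 121 for Jag2. Dll1 (29.8 to 41.8) and Hey2 (19.4 to 36.3) were lowest. The tables were normalised separately, so these levels were ordered within a line only. Notch3 led in each line. In Rptor controls Notch2 (579 ± 38.9 per kilobase, SD, n = 3) and Hes1 (532 ± 4.11) lay close together, and Dll4 (155 ± 6.62), Jag1 (146 ± 15.0) and Hey1 (132 ± 11.7) followed each other within about their spread. In Tfam controls Hes1 (894 ± 52.5) stood above Notch2 (688 ± 81.0) and within the spread of Notch3 (936 ± 64.0). Jag1 was the most abundant ligand per kilobase in Cox10 controls (185 ± 11.2, against 108 ± 10.8 for Dll4), whereas Dll4 was the most abundant in Tfam controls (147 ± 3.89, against 111 ± 8.47 for Jag1).

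**Figure D1:**
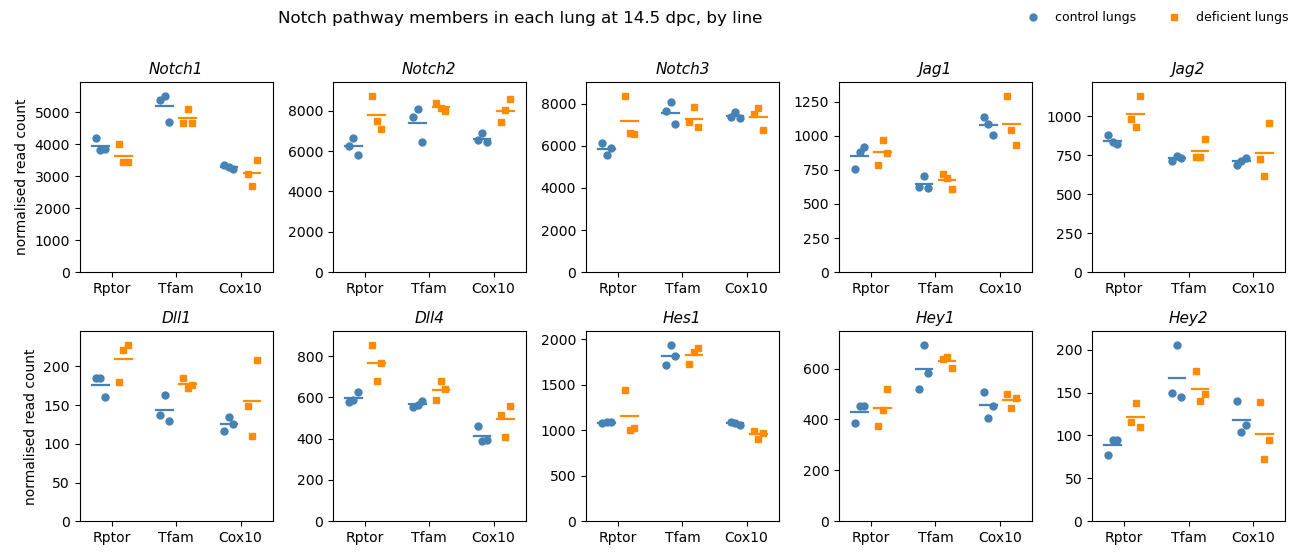
Normalised read counts of the 10 genes (vertical axis, from 0) in each of the 18 lungs, by line (horizontal axis). Circles are control lungs, squares deficient lungs and horizontal bars group means of 3 lungs. Notch2 is higher in all Rptor- and Cox10-deficient lungs than in their controls, and Notch1 means are slightly lower in each line.

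To see whether loss of Rptor, Tfam or Cox10 in the epithelium changed expression of the pathway, deficient lungs were compared with control lungs within each line. Of the 10 genes, 4 rose and none fell in Rptor-deficient lungs (Notch2, Notch3, Jag2 and Dll4), by 1.20-fold to 1.28-fold. None passed in the Tfam or Cox10 line. In the Rptor line 34.8% of all 14940 genes tested passed, so that 4 of 10 lies near the share of all genes. Over all genes the share was 4.66% for Tfam and 0.475% for Cox10. At an unadjusted p below 0.05 there was 1 gene for Tfam (Dll1) and 2 for Cox10 (Notch2 and Hes1). With edgeR on recovered reads the adjusted counts were 4, 0 and 0, and with DESeq2 they were 4, 0 and 1. The 3 control libraries of the Rptor line each bore on the count: it was 0 without control 1, 1 without control 2 and 1 without control 3, and 2 without deficient lung 3. The median log2 difference of the 10 genes was 0.25 for Rptor, 0.07 for Tfam and 0.04 for Cox10, beside 0.01, 0.00 and 0.00 over all genes tested.

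**Figure D2:**
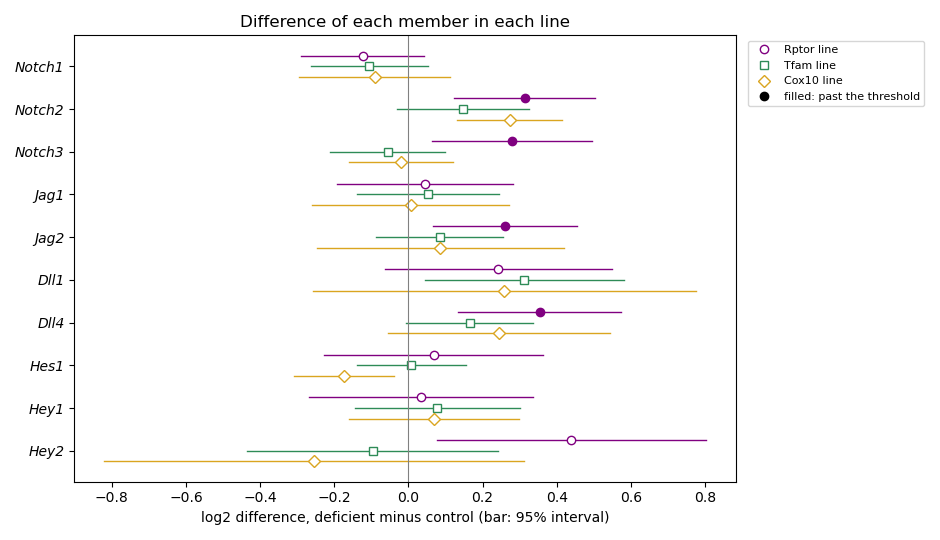
Log2 difference (deficient minus control, horizontal axis) of each gene in the Rptor (circles), Tfam (squares) and Cox10 (diamonds) lines, with 95% intervals from limma. Filled symbols passed the threshold, which was the case for 4 genes of the Rptor line. Notch1 lies below 0 in all 3 lines, and Notch2, Jag1, Jag2, Dll1, Dll4 and Hey1 lie above 0 in all 3.

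Among the receptors, Notch2 (ENSMUSG00000027878, chr3:98013527-98150361, plus strand) was higher in deficient lungs on average in each line. Rptor control lungs held 6250, 6667 and 5828 normalised reads of Notch2, and Rptor-deficient lungs held 8719, 7506 and 7119. The groups did not overlap, and Notch2 rose 1.24-fold (log2 0.31, SE 0.08, adjusted p 0.0201 in limma). Cox10 control lungs held 6531, 6890 and 6443 and deficient lungs 7443, 8022 and 8558. Again all deficient lungs lay above all controls. The log2 difference of 0.27 (SE 0.06) had an adjusted p of 0.139 in limma and 0.0068 in DESeq2. Without deficient lung 3 it was 0.22 (adjusted p 0.0751 in limma). Tfam control lungs held 7712, 8098 and 6429 and deficient lungs 8405, 8146 and 7967, so that the groups overlapped by 1 lung, with a log2 difference of 0.15 (SE 0.08, adjusted p 0.388 in limma). This difference was 0.05 without control 3 and 0.21 without control 2. In the Rptor line the call was lost in 2 of the 6 fits that left out a lung (without control 1 or 3).

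Notch1 (ENSMUSG00000026923, chr2:26457903-26516663, minus strand) had a negative difference in each line, and none passed. The values were 4205, 3828 and 3836 in Rptor controls and 4004, 3455 and 3452 in Rptor-deficient lungs. They were 5382, 5497 and 4689 in Tfam controls and 4673, 5110 and 4663 in Tfam-deficient lungs. In Cox10 controls they were 3336, 3276 and 3217, and in Cox10-deficient lungs 3057, 2703 and 3517. The groups overlapped in every line. Within same-numbered Rptor lungs, here assumed to be pairs, the deficient lung was lower in 3 of 3 pairs, and the adjusted p with the pairs as a block was 0.0938 in limma. The log2 differences were -0.12 (SE 0.07), -0.11 (SE 0.07) and -0.09 (SE 0.09), and the Cox10 value was 0.0013 without deficient lung 2 and -0.19 (adjusted p 0.174 in limma) without deficient lung 3. The Tfam value ran from -0.18 (without control 3) to -0.06 (without control 2). Without Rptor-deficient lung 1, Notch1 passed in the Rptor line (log2 difference -0.19, adjusted p 0.0297 in limma).

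Notch3 (ENSMUSG00000038146, chr17:32120820-32166852, minus strand), the receptor of smooth muscle and pericytes, rose in Rptor-deficient lungs. Controls held 6139, 5561 and 5886 normalised reads and deficient lungs 8347, 6589 and 6540. The groups did not overlap, and deficient lung 1 stood above the other 2. Notch3 rose 1.21-fold (log2 0.28, SE 0.09, adjusted p 0.0488 in limma), close to the threshold. The log2 difference was 0.16 without deficient lung 1 (adjusted p 0.0486 in limma), and the call was lost without control 1, 2 or 3 (adjusted p up to 0.152 in limma). The trimmed mean of M-values scaling gave an adjusted p of 0.0517. In the Tfam and Cox10 lines the log2 differences were -0.06 (SE 0.07) and -0.02 (SE 0.06), with overlapping groups, and the Cox10 value was 0.04 without deficient lung 3. Of 10 markers of mural and smooth muscle cells, 6 rose and 3 fell in the Rptor line, 1 rose and 3 fell in the Tfam line, and none passed in the Cox10 line. Their summed level was 30184 to 34167 in Rptor controls and 35722 to 42810 in Rptor-deficient lungs. The part of these cells in the Notch3 value was not tested.

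The difference between Notch2 and Notch1 within a lung separated deficient from control lungs in all 3 lines. This pair was chosen after the values were seen, so it is a description with no test. The log2 value of Notch2 minus that of Notch1 was 0.57 to 0.80 in Rptor controls and 1.04 to 1.12 in Rptor-deficient lungs. For Tfam it was 0.46 to 0.56 against 0.67 to 0.85, and for Cox10 0.97 to 1.07 against 1.28 to 1.57. Because both genes are read in the same library, this quantity does not depend on the size factor.

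**Figure D3:**
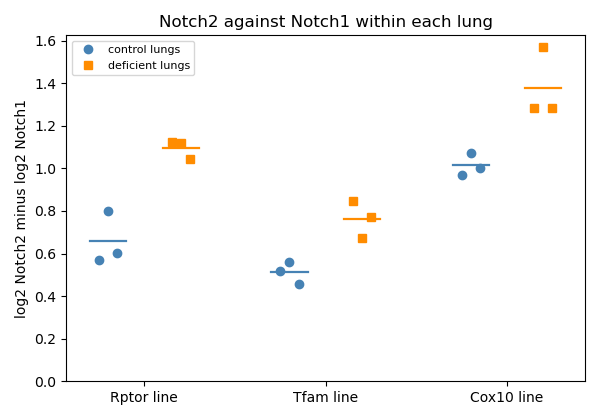
Log2 Notch2 minus log2 Notch1 (vertical axis, from 0) in each lung, by line (horizontal axis). Circles are control lungs, squares deficient lungs and bars group means of 3 lungs. No deficient lung falls among the controls of its line, with the narrowest gap in the Tfam line (0.56 in the highest control, 0.67 in the lowest deficient lung).

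Of the ligands, Dll4 (ENSMUSG00000027314, chr2:119325784-119335962, plus strand), a Delta-like ligand of arterial and sprouting endothelium, gave the largest called change of the 4. Rptor controls held 578, 585 and 626 normalised reads and deficient lungs 853, 678 and 765. The groups did not overlap, and Dll4 rose 1.28-fold (log2 0.35, SE 0.10, adjusted p 0.0217 in limma), a call that was lost in 3 of the 6 fits that left out a lung (without control 1, control 2 or deficient lung 3). Tfam controls held 554, 564 and 583 and deficient lungs 590, 680 and 640, also without overlap (log2 difference 0.16, SE 0.08, adjusted p 0.304 in limma). Cox10 controls held 463, 387 and 394 and deficient lungs 513, 410 and 557, with overlap. The log2 difference there was 0.24 (SE 0.13), and 0.15 without deficient lung 3. Of 6 other arterial markers (among them Gja4, Gja5 and Sox17), 2 rose in the Rptor line, 1 rose in the Tfam line and none passed in the Cox10 line (1 at an unadjusted p below 0.05), with medians of 0.15, 0.18 and 0.06. Their part in the Dll4 values was not tested.

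Jag2 (ENSMUSG00000002799, chr12:112907819-112929776, minus strand) encodes a Jagged ligand. In Rptor controls it was at 879, 833 and 820 normalised reads and in Rptor-deficient lungs at 984, 928 and 1128, again without overlap. It rose 1.20-fold (log2 0.26, SE 0.09, adjusted p 0.0443 in limma). In the fit of all 18 samples the adjusted p was 0.0819, and the call was lost in 4 of the 6 fits that left out a lung (each control and deficient lung 3). The log2 difference was 0.08 (SE 0.08) for Tfam, and ran from 0.01 (without deficient lung 3) to 0.12 (without deficient lung 1). For Cox10 it was 0.09 (SE 0.14), with the highest value (956) in deficient lung 3, and -0.09 without that lung.

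Dll1 (ENSMUSG00000014773, chr17:15367354-15376872, minus strand), another Delta-like ligand, was read at low counts. Tfam controls held 137, 164 and 130 normalised reads and Tfam-deficient lungs 185, 173 and 176, and the groups did not overlap (log2 difference 0.31, SE 0.12, adjusted p 0.208 in limma). Rptor controls held 184, 185 and 160 and deficient lungs 180, 221 and 227 (log2 difference 0.24, SE 0.13). Cox10 controls held 117, 134 and 126 and deficient lungs 149, 110 and 209. The highest of these was deficient lung 3, and the log2 difference of 0.26 (SE 0.22) was 0.02 without it. Jag1 (ENSMUSG00000027276, chr2:137081456-137116644, minus strand), the other Jagged ligand, had log2 differences of 0.05 (SE 0.10) upon Rptor deletion, 0.05 (SE 0.09) upon Tfam deletion and 0.01 (SE 0.11) upon Cox10 deletion. The 95% interval of the widest, in the Cox10 line, ran from -0.26 to 0.27, and its log2 difference was 0.11 without deficient lung 3.

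Among the targets, none passed in any line. Hey2 (ENSMUSG00000019789, chr10:30832359-30842801, minus strand), a repressor of the Hey family downstream of Notch in arteries and heart, was, with Dll1, among the least abundant of the 10. Rptor controls held 77.8, 94.9 and 94.5 normalised reads and Rptor-deficient lungs 116, 138 and 110. The groups did not overlap, yet the log2 difference of 0.44 (SE 0.16) had an adjusted p of 0.0615 in limma. In the Tfam and Cox10 lines the log2 differences were -0.10 (SE 0.15) and -0.25 (SE 0.24), with overlapping groups, and the latter was -0.23 without Cox10-deficient lung 3, -0.50 without deficient lung 1 and -0.04 without deficient lung 2. The Tfam value ran from -0.19 (without deficient lung 1) to 0.06 (without control 2). Hes1 (ENSMUSG00000022528, chr16:30064384-30067796, plus strand), a widely used readout of Notch activity, was at 1091, 1079 and 1058 normalised reads in Cox10 controls and at 988, 903 and 971 in Cox10-deficient lungs. All deficient lungs lay below all controls, with a log2 difference of -0.17 (SE 0.06, adjusted p 0.302 in limma) that was -0.19 without deficient lung 3. In the Rptor line Hes1 was at 1074, 1086 and 1090 in controls and at 1439, 998 and 1020 in deficient lungs. Deficient lung 1 alone was high, and the log2 difference changed from 0.07 to -0.10 without it. In the Tfam line the log2 difference of Hes1 was 0.01 (SE 0.07). Hey1 (ENSMUSG00000040289, chr3:8663359-8667256, minus strand), another Hey repressor, had log2 differences of 0.03 (SE 0.13), 0.08 (SE 0.10) and 0.07 (SE 0.10), with overlapping groups throughout, and the Cox10 value was 0.05 without deficient lung 3.

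Without regard to a threshold, the groups did not overlap for 5 of the 10 genes in the Rptor line (Notch2, Notch3, Jag2, Dll4 and Hey2, all higher), where this held for 50.3% of all genes tested. It held for 2 upon Tfam deletion (Dll1 and Dll4, higher), against 22.8% of all genes, and for 2 upon Cox10 deletion (Notch2 higher, Hes1 lower), against 21.3%. Each of these counts lies near the share of all genes.

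The start region of Hey2 is shown because it was the only promoter window found for the 10 genes with the 7-letter sequence read by Rbpj. Windows of 300 bases around the start site were found for 8 of the 10 genes (9 windows, RefSeq, GRCm38.p6). Hes1 and Hey1 had no window. The search used GTGGGAA and its reverse TTCCCAC, so that both strands were covered. Of all 32851 windows 6.38% held it. The stretch printed lies at chr10:30842774-30843003 on the minus strand, from 220 bases before to 10 bases after the start site, and is written 5′ to 3′ with the matches in capitals.
Hey2: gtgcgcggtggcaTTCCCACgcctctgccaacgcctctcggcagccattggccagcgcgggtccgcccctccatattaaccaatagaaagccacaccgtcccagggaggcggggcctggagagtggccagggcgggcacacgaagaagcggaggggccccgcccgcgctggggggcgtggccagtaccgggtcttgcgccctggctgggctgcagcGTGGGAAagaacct
The first match begins at -207 and reads on the opposite strand, and the second begins at -4 and reads on the strand of the gene. A match describes these letters only and is not a site shown to be bound.

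To use all 18 lungs at once, the mean of the 3 within-line differences was tested in a model of 6 groups. Notch2 rose by a mean log2 difference of 0.24 (SE 0.05, adjusted p 0.00096 in limma), with a higher mean in 3 of 3 lines. Dll4 rose by 0.25 (SE 0.06, adjusted p 0.0043 in limma) and Dll1 by 0.27 (SE 0.10, adjusted p 0.0418 in limma), both also in 3 of 3 lines, as was the case for Jag1, Jag2 and Hey1, whose means did not pass. These 3 of 10 stand beside 37.1% of all 14550 genes that passed the same test. The Dll1 call was lost in 14 of the 18 fits that left out 1 lung, and was at a log2 difference of 0.19 (adjusted p 0.0717 in limma) without Cox10-deficient lung 3. Notch1 had a mean log2 difference of -0.11 (SE 0.05, adjusted p 0.0986 in limma), lower in 3 of 3 lines. It passed with the replicate number as a block (adjusted p 0.0441 in limma) and without Cox10-deficient lung 3 (log2 difference -0.14, adjusted p 0.0198 in limma). The block pairs same-numbered lungs in all 3 lines, although only the numbers of the Rptor line were taken as pairs. Notch1 did not pass in 15 of the 18 fits that left out 1 lung, with an adjusted p of up to 0.195 in limma, and it passed in 1 of 6 other settings, that of the block. Notch2 and Dll4 passed in all 18 of these fits. Jag2 was at 0.14 (SE 0.07, adjusted p 0.101 in limma), at 0.09 without Cox10-deficient lung 3, and at 0.19 (adjusted p 0.0135 in limma) without Cox10-deficient lung 2. Hes1 was at -0.03 (SE 0.06), and at -0.09 (adjusted p 0.0476 in limma) without Rptor-deficient lung 1. Notch3 was at 0.07 (SE 0.05) and at 0.03 without the same lung. Hey1 was at 0.06 (SE 0.07), Jag1 at 0.03 (SE 0.06) and Hey2 at 0.03 (SE 0.12), and none of these passed in any fit that left out a lung.

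Whether a gene responded differently to the 3 deletions was tested as the difference of the differences. None of the 10 passed for any pair of lines, where 11.2% of all genes passed between the Rptor and Tfam lines, 7.48% between the Rptor and Cox10 lines and 0.055% between the Tfam and Cox10 lines. The closest were Notch3, with a difference of 0.34 between the Rptor and Tfam lines (SE 0.12, 95% interval 0.08 to 0.59, adjusted p 0.0771 in limma), and Hey2, with 0.69 between the Rptor and Cox10 lines (SE 0.29, 95% interval 0.09 to 1.30, adjusted p 0.154 in limma). With the replicate number as a block, Notch3 passed for the Rptor line against the Tfam line (adjusted p 0.0171 in limma) and against the Cox10 line (difference 0.30, adjusted p 0.0365 in limma). This block treats same-numbered lungs as pairs in all 3 lines, although only those of the Rptor line were taken as pairs. Both calls therefore rest on a pairing not adopted for the Tfam and Cox10 lines. At an unadjusted p below 0.05 stood Notch3 for both pairs with the Rptor line and Hey2 for the Rptor and Cox10 pair.

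Because endothelial and epithelial markers moved with the deletions, each gene was also expressed relative to the mean log2 value of Pecam1, Cdh5 and Kdr in the same lung, and relative to that of Epcam, Cdh1 and Nkx2-1. The endothelial mean itself differed by 0.36 (Rptor), 0.08 (Tfam) and 0.26 (Cox10) on the log2 scale, and the epithelial mean by -1.17, -0.27 and -0.40. Averaged over the lines these are 0.23 and -0.61, so that a gene with no change of its own would come out at -0.23 relative to the endothelial markers and at 0.61 relative to the epithelial ones. Without Cox10-deficient lung 3 the Cox10 shifts were 0.06 (endothelial) and -0.50 (epithelial), the endothelial mean over the lines was 0.17, and the values of a gene without change became -0.17 and 0.65. The exact tests compare the relative values with 0 and not with these. Within a line of 3 against 3 lungs an exact permutation test cannot go below 0.1, and over the lines it cannot go below 0.00025 (two-sided, 8000 arrangements within lines). No adjustment over the 10 genes is given, since they were chosen with earlier results known. Notch1 was lower relative to the endothelial markers, by 0.34 on average on the log2 scale, and its deficient lungs lay below its controls in each line (exact p 0.00025, the smallest possible). Of this difference -0.23 is the shift of the markers, and the mean log2 difference of Notch1 itself was the -0.11 given above, which did not pass. The exact p is against 0 and so includes the shift of the markers. It is not read as a change of Notch1 in whole lungs. Relative log2 values ran from -0.95 to -0.78 in Rptor controls and from -1.53 to -1.16 in Rptor-deficient lungs. For Tfam, controls ran from -0.47 to -0.31 and deficient lungs from -0.58 to -0.53. For Cox10, controls ran from -0.64 to -0.54 and deficient lungs from -1.14 to -0.82. Over the 18 fits that left out a lung the Notch1 difference stayed between -0.37 and -0.31, with exact p of at most 0.0005, and was -0.31 without Cox10-deficient lung 3. Hes1 was at -0.26, near the value of a gene without change, and its own mean log2 difference was -0.03.

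Relative to the endothelial markers Notch2 was at 0.01, Dll4 at 0.02, Dll1 at 0.04 and Jag2 at -0.09, each above the -0.23 of a gene without change. Notch3 was at -0.16, Hey1 at -0.17, Jag1 at -0.20 and Hey2 at -0.20. When 1 lung was left out, Notch3 ran from -0.22 to -0.08, Hey1 from -0.21 to -0.11, Jag1 from -0.26 to -0.10 and Hey2 from -0.31 to -0.13. The upper end of each came without Cox10-deficient lung 3, where a gene without change was at -0.17. A value of 0 is that of a gene that moved as much as the markers, so a test against 0 says nothing of a rise in whole lungs, and none is read here. Relative to the epithelial markers the 10 genes ran from 0.51 for Notch1 to 0.88 for Dll1, around the 0.61 of a gene without change, so no test of these values is given. A member is not read from 1 cell type alone, and the share of each type in these values was not tested.

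**Figure D4:**
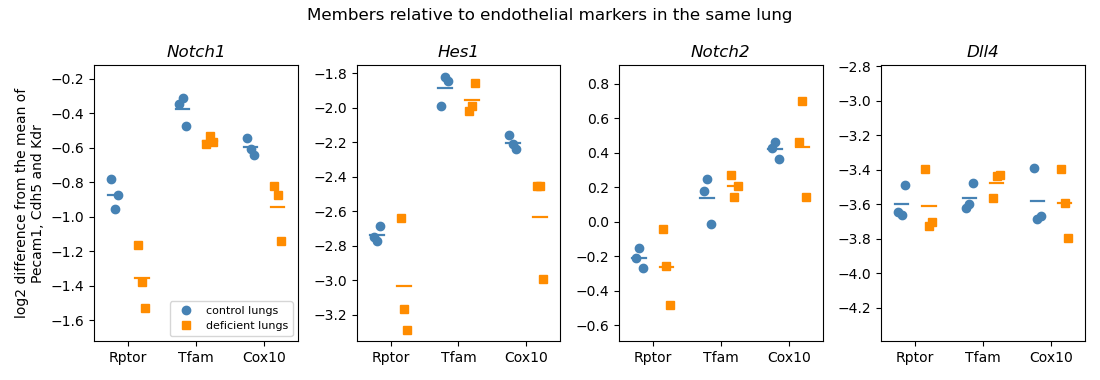
Log2 value of Notch1, Hes1, Notch2 and Dll4 minus the mean log2 value of Pecam1, Cdh5 and Kdr in the same lung (vertical axes, each spanning the same range), by line (horizontal axis). Circles are control lungs, squares deficient lungs and bars group means of 3 lungs. Notch1 is lower in all deficient lungs than in the controls of their line, whereas the groups overlap for Notch2 and Dll4.

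The other genes of the pathway were taken from a list of 39 (further receptors and ligands, modifying enzymes, cleavage enzymes, nuclear partners, and targets with feedback genes). Of these 38 could be tested, since Hes5 was listed at no more than 5.08 normalised reads in any lung. In the Rptor line 11 rose and 1 fell, which is 31.6% of the 38 beside 34.8% of all genes tested. In the Tfam line 1 rose and 2 fell, which is 7.89% beside 4.66%, and in the Cox10 line none passed (6 at an unadjusted p below 0.05, 0 with edgeR and 1 with DESeq2 after adjustment), beside 0.475% of all genes. Leaving out a lung gave 8 (without control 3) to 17 (without deficient lung 1) in the Rptor line and 1 (without control 1) to 5 (without control 3) in the Tfam line. The median log2 difference of the list was 0.08, 0.02 and 0.07. Dtx4, a deltex-family gene, fell in both the Rptor and the Tfam line. It was at 2176, 2314 and 1985 normalised reads in Rptor controls and at 1389, 1663 and 1527 in Rptor-deficient lungs (log2 difference -0.50, SE 0.08, adjusted p 0.00274 in limma). It was at 2079, 2245 and 2057 against 1675, 1679 and 1688 in the Tfam line (log2 difference -0.34, SE 0.06, adjusted p 0.00692 in limma). In the Cox10 line it was at 1970, 1882 and 1933 against 1622, 1696 and 1501 (log2 difference -0.27, SE 0.06, adjusted p 0.133 in limma), and the difference was -0.22 (adjusted p 0.0711 in limma) without deficient lung 3. Control and deficient lungs overlapped in none of the lines, which was also so for Dlk1, and Dtx4 fell by a mean log2 difference of 0.37 over them (SE 0.04, adjusted p 2.4e-06 in limma). Of the 38 genes 12 passed this test of the mean, which is 31.6% beside 37.1% of all genes. The share of all genes without overlap in every line was not counted.

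Of the genes that rose in the Rptor line, Dll3, a ligand that acts within the cell rather than on its neighbour, was at 4.99, 12.0 and 15.9 normalised reads in controls and at 45.9, 36.6 and 109 in deficient lungs (log2 difference 2.40, SE 0.49). Dtx1, another deltex gene and a target of Notch, was at 152, 156 and 204 against 395, 267 and 260 (log2 difference 0.83, SE 0.19). Hes7, a repressor of the segmentation clock, was near the lower limit of the counts, at 15.0 to 17.0 against 24.5 to 29.6 (log2 difference 0.75, SE 0.24, adjusted p 0.0376 in limma). This call was lost with the replicate number as a block (adjusted p 0.0532 in limma), without the filter on low values (0.0541), in DESeq2 (0.172) and in 5 of the 6 fits that left out a Rptor lung. Dlk1, a non-canonical ligand, rose by a log2 difference of 0.70 (SE 0.11) and in the Tfam line by 0.31 (SE 0.08, adjusted p 0.0472 in limma). Dlk1 was also higher in Cox10-deficient lungs, at 22501, 22026 and 30304 against 20036, 18507 and 19425 (log2 difference 0.35, SE 0.12, adjusted p 0.302 in limma). Without deficient lung 3, which held the highest value, the log2 difference was 0.21 (SE 0.04, adjusted p 0.0787 in limma). Maml2, a coactivator of the Notch nuclear complex, rose by 0.57 (SE 0.09) in the Rptor line. Lfng, a glycosyltransferase that tunes the response of Notch to its ligands, fell by 0.32 on the log2 scale in the Tfam line (SE 0.07, adjusted p 0.0211 in limma). Its log2 difference was not past the threshold in 5 of the 6 fits that left out a Tfam lung, and neither was that of Dlk1 in 4 of 6.

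Genes whose values moved most like each of the 10 were sought over the 18 lungs, after subtracting the mean of each line and among 12586 genes. Differences between deficient and control lungs and library composition are shared by all of these points, so the correlations are descriptions. The 3 highest for Notch2 were Adam12 (Pearson's r 0.94), Arhgap20 (0.94) and Dennd5a (0.94), and for Dll4 Cpt1c (0.94), Tmco3 (0.94) and Stc1 (0.93). For Jag2 they were Icam2, an endothelial adhesion molecule (0.93), Kctd10 (0.93) and Clec14a, also an endothelial gene (0.91). Those of Notch3 were Zfp423 (0.93), Ube4b (0.93) and Dchs1 (0.92), and those of Hey2 were Prox1, a lymphatic and hepatic transcription factor (0.93), Fbxo32 (0.90) and Lrrn2 (0.86). For Dll1 the nearest were Atp6v0e (0.90), Ahr (0.89) and Lcp1, a leukocyte actin-bundling gene (0.89). Macrophage markers rose in 4 of 4 cases in the Rptor line, with a median log2 difference of 0.71. In the Tfam line none passed, but 4 of 4 had a positive difference (median 0.25, 3 at an unadjusted p below 0.05), and in the Cox10 line 4 of 4 did too (median 0.17, 1 at an unadjusted p below 0.05). Their part in the differences of Dll1 was not tested. The other 4 genes had less similar neighbours at the first rank. Hey1 was closest to Sox13 (0.85), Ccdc90a (0.84) and Klf4 (0.82), and Hes1 to Prkab2 (0.85), Pigg (0.85) and Gm7120 (0.84). Notch1 was closest to Zbtb7b (0.83), Proser2 (0.83) and Synrg (0.82), and Jag1 to Klhl26 (0.79), Znf512b (0.79) and Cdk13 (0.79).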

How the data were processed

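RNA-seq was performed by the authors on 18 whole lungs at 14.5 dpc. The submitters' processing notes name Trim Galore, HISAT2, featureCounts and DESeq2, with the build mm10. The annotation and strand setting are not given in the sources used here, so reads of a gene and an overlapping antisense gene cannot be told apart. GENCODE models of GRCm38 place exons of other genes over those of Notch1, Notch2, Notch3, Dll1 and Dll4. The methods name a BGI machine and the labels Illumina protocols. The authors deposited, for each line, a normalised signal per gene (read count divided by a size factor). Every value was a whole multiple of a step of 0.978 to 1.02 (tolerance 0.01 of a read), so whole reads (27675600 to 29704750 per lung) were recovered. The deposited fold changes and p-values were not used.

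Groups and replicate numbers came from the sample titles. Genes with a value of at least 10 in at least 3 of 6 lungs were tested with limma 3.58.1 (lmFit, eBayes with trend, two-sided) in R 4.3.3 on log2(value + 1). Fold changes are on this scale, which understates changes of low genes. edgeR 4.0.16 (quasi-likelihood) and DESeq2 1.42.0 on recovered reads were alternatives, with a pseudocount of 0.1, no filter, a mean of at least 50, other scalings, a replicate block, 1 fit of all 18 lungs and leaving out each lung. Same-numbered Rptor lungs deviated together (correlations 0.221, 0.330 and 0.259), so the numbers were taken to pair that line. This rests on a threshold of 0.1 for every pair and not on the labels. In the Tfam and Cox10 lines at least 1 pair was at or below 0.1, although the mean correlation was 0.233 in the Cox10 line against 0.270 in the Rptor line. Lungs with different numbers were not compared, so the pairing is an assumption. On simulated counts of 14788 genes of the Rptor line, 47.0% of changes of 0.5 and 81.8% of changes of 1 (log2) were recovered. Only 100 and 99 genes were changed by these sizes, whereas 34.8% of genes passed in the data. The sizes also exceed every called difference of the 10 genes, so the rates do not give the power of the reported comparison.

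The 10 genes and the lists were chosen with earlier results of these data known. All 10 were named, and of other pathway genes the called ones with the largest differences, up to 5 a line, and the 3 genes most correlated with each of the 10. Dtx4 in the Rptor line, Notch2 against Notch1, and Mib2 and Numbl below were named after their values were seen. Leaving out lungs from the relative values, and Cox10-deficient lung 3 from the marker means, Dlk1 and Dtx4, was added after seeing the data. Sequences came from RefSeq.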

Additional observations from a re-analysis of the deposited data

Results flagged for a closer look

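Effects of 4 other pathway genes differed between the Rptor and Tfam lines by the test of the difference itself (limma, Rptor minus Tfam, 18 lungs), which is 10.5% of the 38 tested and near the 11.2% of all genes that passed it. Mib2, a ubiquitin ligase that acts on Notch ligands, differed by 0.42 (SE 0.10, adjusted p 0.0115 in limma), with a rise of 0.50 in the Rptor line. Maml2 differed by 0.48 (SE 0.12, adjusted p 0.0188 in limma). Numbl, a relative of the Notch inhibitor Numb, differed by 0.39 (SE 0.12, adjusted p 0.0404 in limma). Hes7 differed by 1.02 (SE 0.32, adjusted p 0.045 in limma), at fewer than 40 normalised reads in each lung. None of the 10 receptors, ligands and targets met this test. Groups of 3 lungs were too small for a test of outlying values.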

How the results depend on the processing

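Of the receptors, ligands and targets, 2 passed in the Rptor line without the filter on low values (Notch2 and Dll4), where more genes are tested, and 3 or 4 did under the other settings. Leaving out a lung gave 0 to 5. In the Cox10 line 1 gene of the 10 and 1 other pathway gene passed in DESeq2, and leaving out a lung gave 0 in the Tfam and Cox10 lines. For other pathway genes of the Tfam line, 1 passed in the fit of all 18 lungs, and leaving out a lung gave 1 to 5. Between lines, 1 gene (Notch3) passed with the replicate block for the Rptor and Tfam pair and 1 for the Rptor and Cox10 pair, and leaving out a lung gave 0 to 1 for each. The mean over lines gave 4 with the replicate block, and leaving out a lung gave 2 to 5. In these fits of 18 lungs the block pairs same-numbered lungs of every line, of which only those of the Rptor line were taken as pairs. Relative to endothelial markers 2 to 4 genes had an exact p below 0.05 when a lung was left out. These tests are against 0 and not against the value of a gene without change, and the share of all genes was not computed. The count is therefore not read as a result about the 10 genes. The block changed no other call of the 10 genes, and among other pathway genes Hes7 (adjusted p 0.0532 in limma) and Nrarp (0.0515) lost theirs in the Rptor line. In the Tfam and Cox10 lines, whose numbers were not taken as pairs, the block called 802 and 48 genes in place of 702 and 71. With all lungs kept, the within-line, mean and relative differences of single genes (the 10 genes, and pathway genes called in a line or named) kept their direction and side of the threshold in 495 comparisons of a setting with the reported value, lost a call in 15 and gained a call in 2, not counting the differences between lines or the pathway gene of DESeq2 given above. Except as stated, the cause was not tested.

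Signs that turned when 1 lung was left out all belong to values near 0, with ranges as follows on the log2 scale. For the Rptor line, Jag1 -0.041 to 0.12, Hey1 -0.089 to 0.15 and Hes1 -0.10 to 0.16. For the Tfam line, Hes1 -0.033 to 0.052, Hey1 -0.018 to 0.19 and Hey2 -0.19 to 0.062. For the Cox10 line, Hey1 -0.0096 to 0.15, Jag1 -0.12 to 0.11, Notch1 -0.19 to 0.0013, Notch3 -0.064 to 0.040 and Jag2 -0.085 to 0.23. For the mean over the lines, Hey2 -0.052 to 0.10 and Jag1 -0.0081 to 0.070. For values relative to the endothelial markers, Notch2 -0.031 to 0.061 and Dll4 -0.014 to 0.055. Precision is limited by 3 lungs a group, and Dll1 and Hey2 have the fewest reads of the 10.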
